A study of Mus musculus with 4 samples.

Results

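The data describe acetylation of histone H3 lysine 27 (H3K27ac) at the mouse genes Gata1 and Zfpm1. All H3K27ac peaks that overlapped mm9 chrX:7500000-7570000, the 70 kb window of Gata1, or mm9 chr8:124780000-124890000, the 110 kb window of Zfpm1, were taken by position alone. A replicate list held 1 peak in the Gata1 window and 3 or 4 in the Zfpm1 window, of 21557 to 29087 peaks in all. Chromatin was from 4 samples, 2 of G1E and 2 of G1E-ER4+E2. G1E is an erythroid progenitor line from mouse embryonic stem cells of strain 129 in which Gata1 is knocked out, and it was untreated. G1E-ER4+E2 is the same Gata1-null line carrying a virus that expresses GATA1 fused to an estrogen receptor domain, treated with 10 nM estradiol for 24 h. The GATA1 protein active in the treated cells thus comes from the virus, and the gene at its own locus is disrupted in all 4 samples. Peaks were also deposited for the replicates of each line pooled, which gives 6 lists.

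GATA1 is a zinc finger transcription factor needed for red cell and megakaryocyte maturation. FOG1, the product of Zfpm1 (zinc finger protein, multitype 1), binds the N-terminal zinc finger of GATA1 and takes part in both activation and repression of its target genes. H3K27ac is found at active promoters and enhancers, and very long stretches of it are common at genes for regulators of cell identity. In the RefSeq gene order of GRCm38.p6, the nearest named protein-coding genes are Hdac6 and Glod5 for Gata1, and Zfp469 and Trhr2 for Zfpm1. Neither gene was placed within its mm9 window here, because no annotation of that build was used.

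The promoter of each gene is shown for its CG content and its matches to motifs of erythroid factors. The sequences are the RefSeq promoter sequences of GRCm38.p6, 250 bases before to 50 bases after the start, 5′ to 3′ along each gene (minus strand for Gata1, plus strand for Zfpm1). Capitals mark CCNCNCCC on either strand, a loose form of the CACCC-type motif of the erythroid factor KLF1. A match need not hold the letters CACCC, and binding of KLF1 was not measured.
Gata1: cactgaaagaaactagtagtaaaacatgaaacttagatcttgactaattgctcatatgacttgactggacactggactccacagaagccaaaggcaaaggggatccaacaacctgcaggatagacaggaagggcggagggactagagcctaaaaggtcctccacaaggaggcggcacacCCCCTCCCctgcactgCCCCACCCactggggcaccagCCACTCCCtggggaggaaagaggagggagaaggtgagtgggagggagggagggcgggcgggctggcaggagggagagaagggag
Zfpm1: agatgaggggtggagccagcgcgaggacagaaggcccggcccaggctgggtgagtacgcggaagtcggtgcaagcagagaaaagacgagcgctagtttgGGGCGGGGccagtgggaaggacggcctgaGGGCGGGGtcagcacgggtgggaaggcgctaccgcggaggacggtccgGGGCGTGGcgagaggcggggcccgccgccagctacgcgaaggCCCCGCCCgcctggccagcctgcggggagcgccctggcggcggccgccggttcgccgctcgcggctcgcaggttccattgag
Gata1 had 4 CG dinucleotides, more than 31.4% of 32851 mouse promoters, and Zfpm1 had 37, more than 94.4%, against a median of 7. The letters CCNCNCCC occurred 3 times at Gata1 and 4 times at Zfpm1, and 49.5% of promoters of this length held them. The GATA motif, searched on both strands as GATAA or GATAG with A or T before it, occurred 0 times in either sequence, and 29.8% of promoters held it. Whether a peak covered either start site was not determined.

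The Gata1 window held no H3K27ac peak over its first 68.0 to 69.2 kb in any of the 6 lists. The peaks are called at a q-value of at most 0.01, so this is a lack of a called peak, not of acetylation. It says nothing about the disruption of the gene. The free stretch began at 7478201 in all 6 lists, right of a peak ending at 7478200, and its length was 90.2 kb and 89.8 kb in the G1E replicates and 90.4 kb and 91.0 kb in the G1E-ER4+E2 replicates. It was longer than 64.7 to 69.9% of the gaps between peaks on the X chromosome and than 80.8 to 88.2% of the gaps on all chromosomes. Of stretches of 70 kb placed end to end along the chromosomes, 69.1 to 72.9% had no peak. The stretch from 7478201 to 7568000, free in every G1E list, also held no called peak in any G1E-ER4+E2 list.

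Both cell lines had a short, well enriched peak at the right edge of the Gata1 window. It spanned 7568401-7572200 in G1E replicate 1 and 7568001-7573200 in G1E replicate 2, widths of 3.8 kb and 5.2 kb. It spanned 7568601-7573000 in G1E-ER4+E2 replicate 1 and 7569201-7573000 in replicate 2, widths of 4.4 kb and 3.8 kb. The widths overlapped between the lines (4500 ± 990 bp against 4100 ± 424 bp, SD, n = 2 each, exact two-sided permutation p = 1). With 2 against 2 samples the smallest p this test can give is 0.333, so none of the comparisons here could pass 0.05. Its fold enrichment, a ratio as the peak caller gave it, was 21 and 20.7 in G1E and 11.1 and 14.1 in G1E-ER4+E2. These values are not comparable between lists, whose median enrichments were 6.69 and 7.76 in G1E and 2.98 and 3.59 in G1E-ER4+E2. Within its own list, the peak exceeded 94.2% and 88.9% of peaks in the G1E replicates, and 95.2% and 94.9% in the G1E-ER4+E2 replicates. This percentile was 91.5 ± 3.69 in G1E and 95.1 ± 0.232 in G1E-ER4+E2 (SD, n = 2 each), a difference of 3.52 points without overlap (exact permutation p = 0.333). Of 12090 loci with a peak in all 4 replicate lists, 46.1% likewise had a higher percentile in both G1E-ER4+E2 replicates, and 22.3% had a lower one in both. The difference of the Gata1 edge peak became 0.916 points without G1E replicate 2, 6.13 points without G1E replicate 1, and -0.189 points when each list was shortened by enrichment rank to an equal covered length.

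Within the 70 kb window the edge peak covered 1.6 kb and 2.0 kb in G1E and 1.4 kb and 0.8 kb in G1E-ER4+E2. The lowest G1E value was above the highest G1E-ER4+E2 value, by 1 step of the 200 bp grid on which all borders lie (1800 ± 283 bp against 1100 ± 424 bp, SD, n = 2 each, exact permutation p = 0.333). This length depends on where the window ends. With the window widened by 20 kb on each side, which takes in peaks to the right of it, 10800 and 11000 bp were covered in G1E and 8200 and 7600 bp in G1E-ER4+E2, a difference of -3000 bp in place of -700 bp (exact permutation p = 0.333). Beyond the window, the next peak followed after 3.0 to 4.0 kb in all 6 lists and ended at 7580400 or 7580800. The map of the Gata1 window shows these positions.

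**Figure D1:**
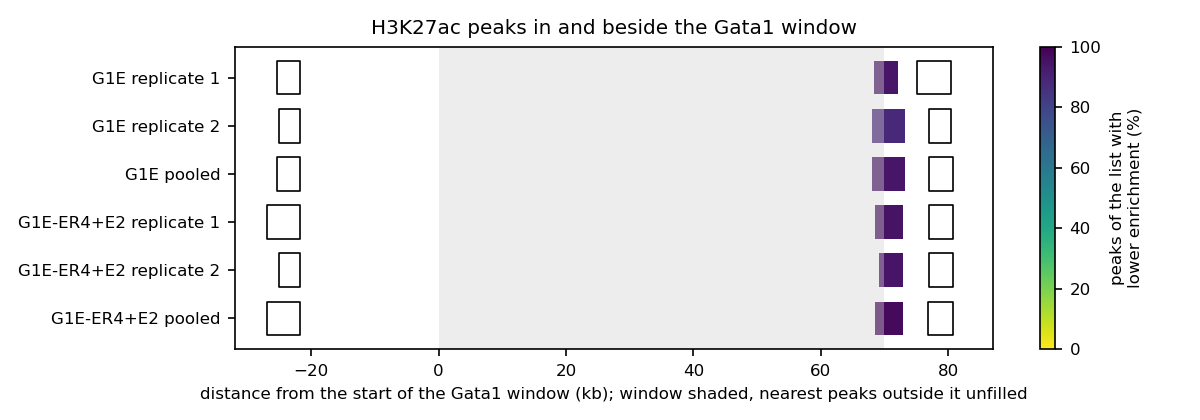
H3K27ac peaks in and beside the Gata1 window in each list. The horizontal axis is the distance from the start of the 70 kb window in kb, the window is shaded, bars are peaks overlapping it (coloured by the percent of peaks of the list with lower enrichment), and unfilled bars are the nearest peaks outside. In every list, the first 68.0 kb or more of the window is empty and 1 peak crosses its right edge.

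The Zfpm1 window was mostly acetylated in both cell lines. Peaks covered 80.4 kb and 75.4 kb of its 110 kb in the G1E replicates, and 74.6 kb and 72.8 kb in the G1E-ER4+E2 replicates. The lines did not overlap, but the closest replicates of different lines differed by 0.8 kb, less than either line's replicates differed from each other. Means were 77900 ± 3536 bp and 73700 ± 1273 bp (SD, n = 2 each), a difference of -4200 bp (exact permutation p = 0.333). Without G1E replicate 1 the difference was -1700 bp, and without G1E replicate 2 it was -6700 bp. With the window widened by 20 kb on each side, covered lengths were 99200 and 90000 bp in G1E and 90200 and 89600 bp in G1E-ER4+E2, and the lines overlapped (exact permutation p = 0.667). Of 33011 loci formed by merging the peaks of the 4 replicate lists, 24.4% had less covered length in both G1E-ER4+E2 replicates than in both G1E replicates and 39% had more. With each list shortened by enrichment rank to an equal covered length, the split turned, with 8920 of 24305 loci shorter in G1E-ER4+E2 and 5874 longer. Few stretches of the genome were so densely covered. Of the stretches of 110 kb placed end to end, 0.184% and 0.104% had as much cover or more in the G1E lists, and 0.688% and 0.73% in the G1E-ER4+E2 lists. These stretches start at multiples of 110 kb and can cut a wide peak. The window was instead chosen for its gene, with earlier results of these data known, so the shares only describe it.

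Most of that cover was 1 very wide peak, here called the main peak (the peak with the most base pairs in the window). It was at 124794001-124859800 in G1E replicate 1, at 124803201-124859800 in G1E replicate 2, at 124806601-124859800 in G1E-ER4+E2 replicate 1 and at 124806601-124859000 in G1E-ER4+E2 replicate 2. The right border thus lay within 0.8 kb in all 4 lists, and the left border moved by up to 12.6 kb. By width the main peak ranked 15 and 17 among all peaks of the G1E lists, and 58 and 67 in the G1E-ER4+E2 lists, which had more peaks of 30 kb or more (408 and 434, against 237 and 153 in G1E). The main peak was 65.8 kb and 56.6 kb wide in G1E and 53.2 kb and 52.4 kb in G1E-ER4+E2.

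The left border of the main peak in G1E-ER4+E2 was the edge of a short gap. All 3 G1E-ER4+E2 lists, pooled list included, had no peak at 124805801-124806600, a stretch of 800 bp that lay inside the main peak in all 3 G1E lists. To its left was a separate peak of 9.8 kb in G1E-ER4+E2 replicate 1 and 9.2 kb in replicate 2. G1E replicate 2 also had a gap of 800 bp, at a different place, 124802401-124803200, and a peak of 5.8 kb to its left, whereas G1E replicate 1 and the pooled G1E list had no gap there. Loss of an inner stretch, covered in both G1E replicates and in neither G1E-ER4+E2 replicate, occurred in 7.98% of the 12090 loci with a peak in all 4 lists and in 25.8% of the 655 of them with a peak of 30 kb or more. Among those 655 loci, 53.4% had an inner stretch that was filled in G1E-ER4+E2 instead.

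As deposited, the main peak was 61200 ± 6505 bp wide in G1E and 52800 ± 566 bp in G1E-ER4+E2 (SD, n = 2 each), a difference of -8400 bp (exact permutation p = 0.333). The groups did not overlap. The widest peak was narrower in both G1E-ER4+E2 replicates at 26.5% of the 12090 loci and at 19.1% of the 655 with a peak of 30 kb or more, and wider at 37.5% and 62.7%. When peaks less than 1000 bp apart were joined, the main peak was 65.8 kb and 63.2 kb in G1E and 63.8 kb and 62.4 kb in G1E-ER4+E2. The groups then overlapped, and the difference was -1400 bp (exact permutation p = 0.667). Without G1E replicate 1 the difference as deposited was -3800 bp, and without G1E replicate 2 it was -13000 bp. Joining closed the gap in G1E-ER4+E2 and also the gap in G1E replicate 2, so the effect of either gap alone was not measured. The plot of the replicates shows the widths before and after joining.

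**Figure D2:**
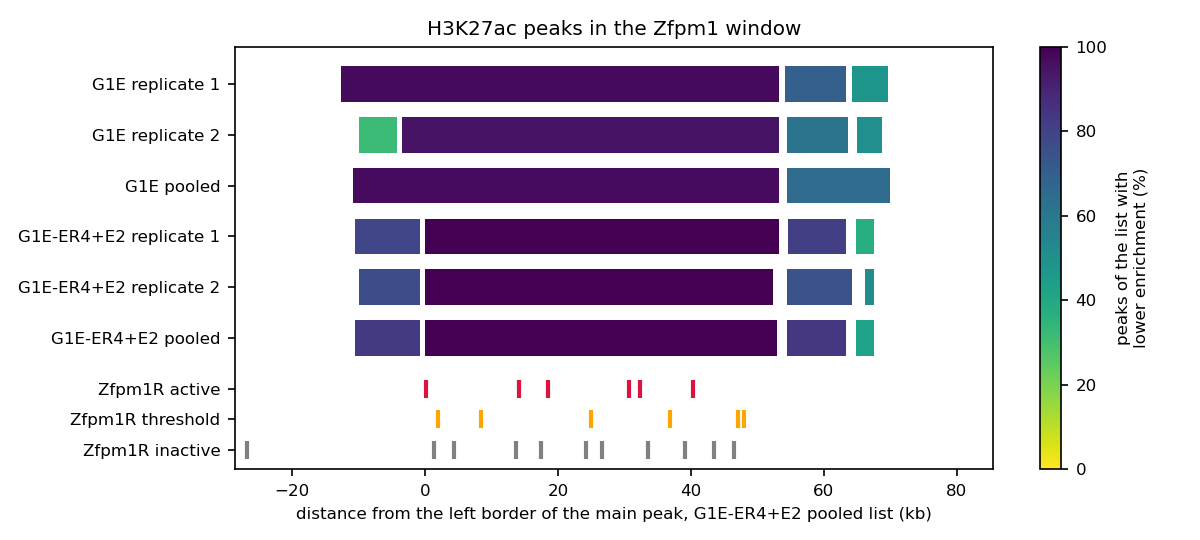
H3K27ac peaks in the Zfpm1 window in each list, with the tested DNA segments named Zfpm1R. The horizontal axis is the distance in kb from the left border of the main peak in the pooled G1E-ER4+E2 list, bars are peaks coloured by the percent of peaks of the list with lower enrichment, and ticks are segments by activity class. The gap of 800 bp left of position 0 is in all 3 G1E-ER4+E2 lists, and 22 of 23 segments lie in the main peak of every list.

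**Figure D3:**
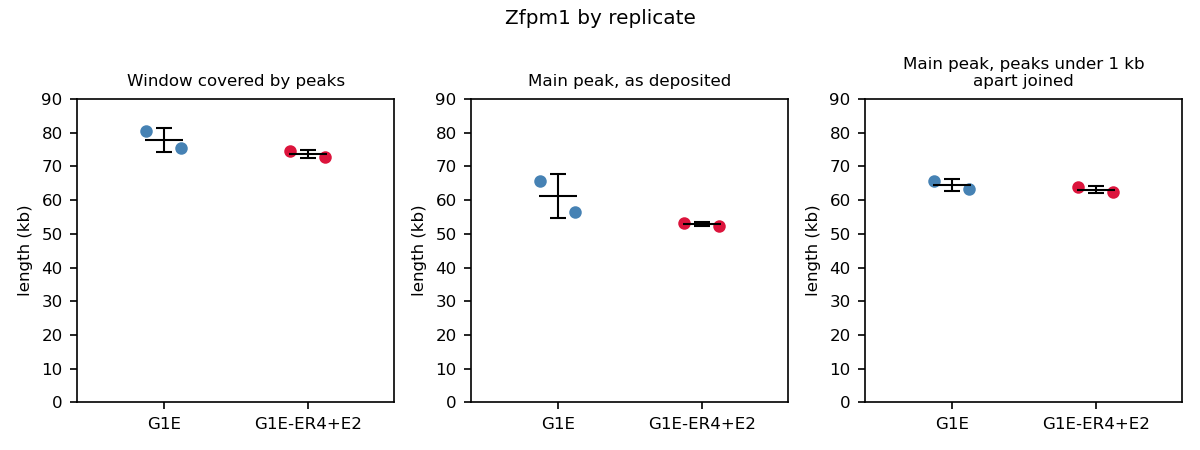
Length in kb of the Zfpm1 window covered by peaks, of the main peak as deposited and of the main peak after joining peaks less than 1 kb apart. Points are replicates, horizontal lines are means and error bars are SD (n = 2 each). The main peak separates the lines as deposited (52.4 and 53.2 kb against 56.6 and 65.8 kb) and overlaps between them after joining.

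By base pairs, the main stretch of Zfpm1 was among the most alike between the lines of all loci. Over 124794001-124859800, peaks covered 65800 bp and 62400 bp in G1E and 63000 bp and 61600 bp in G1E-ER4+E2, and the lines overlapped. The stretch was 1 peak in G1E replicate 1 and 2 peaks in each of the other 3 replicates, and 6.29% of loci had more separate peaks in both G1E-ER4+E2 replicates than in both G1E replicates. The base pairs covered in both lists of a pair, as a share of those covered in either, were at least 93.6% for all 4 pairs of a G1E and a G1E-ER4+E2 replicate. Of the 12090 loci 0.422% reached this share, and the median locus had 48.5%. Of the 655 loci with a peak of 30 kb or more, 1.37% reached it, and their median was 54.6%. This measure was chosen after the borders had been seen. Over the whole lists, replicates of one line shared 70.6% and 71.2% of covered base pairs, and replicates of different lines 38.8 to 40.2%. The Zfpm1 window was more alike. There the same values were 93.3% and 95% within a line and 88.7 to 94.8% between lines.

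The enrichment of the main peak within its list was high in G1E and near the top in G1E-ER4+E2. Its fold enrichment was 25.5 in G1E replicate 1 (rank 590 of 21557 peaks) and 26 in G1E replicate 2 (rank 1164 of 23451). It was 28.6 in G1E-ER4+E2 replicate 1 (rank 22 of 29087) and 31.4 in G1E-ER4+E2 replicate 2 (rank 49 of 26740). Relative to the median of its list, the enrichment was 3.81 and 3.35 times as high in G1E and 9.59 and 8.75 times as high in G1E-ER4+E2. The main peak thus exceeded 97.3% and 95% of peaks in the G1E lists and 99.9% and 99.8% in the G1E-ER4+E2 lists. Means were 96.1 ± 1.57% and 99.9 ± 0.0761% (SD, n = 2 each), a difference of 3.72 points without overlap (exact permutation p = 0.333). This direction was shared by 46.1% of loci with a peak in all 4 lists, and 22.3% had the opposite one. The main peak was also compared with other wide peaks. Among peaks of 30 kb or more it ranked 9 of 237 and 14 of 153 by enrichment in the G1E lists, and 1 of 408 and 5 of 434 in the G1E-ER4+E2 lists. The part of the lower median enrichment of the G1E-ER4+E2 lists in these ranks was not tested. The plot of wide peaks shows the main peak among its peers.

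**Figure D4:**
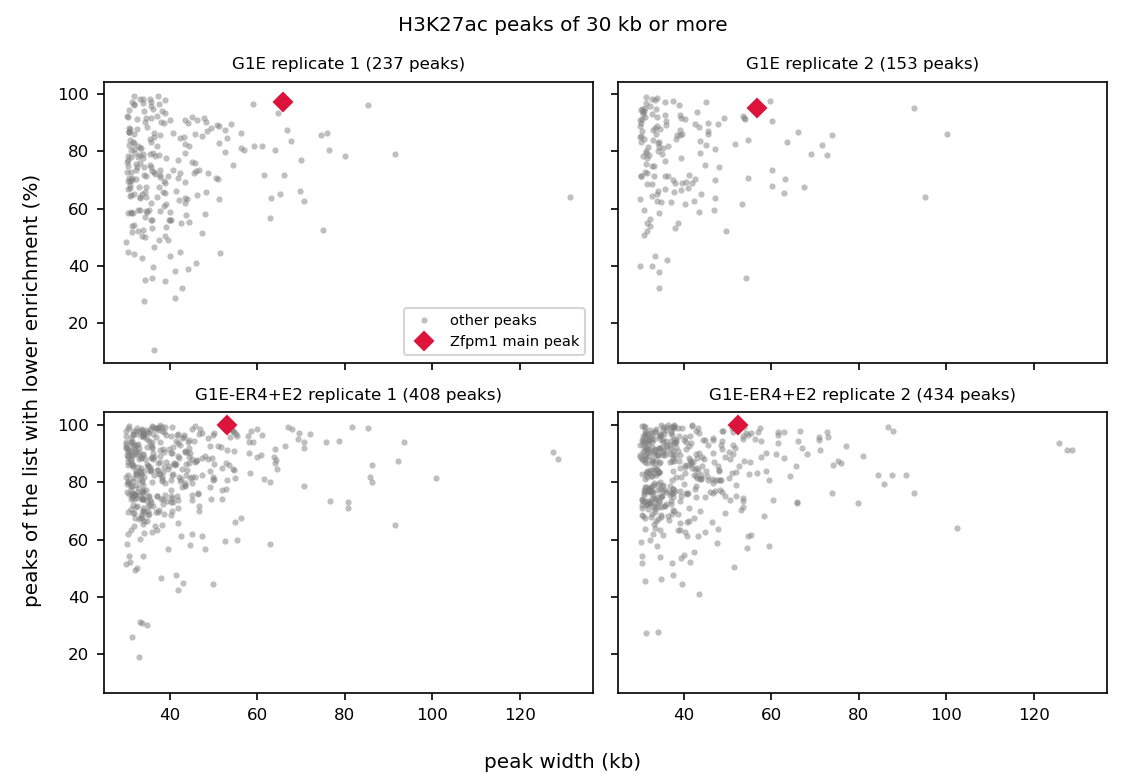
H3K27ac peaks of 30 kb or more in each replicate list. The horizontal axis is peak width in kb, the vertical axis is the percent of all peaks of the list with lower enrichment, grey points are other peaks and the red diamond is the main peak of Zfpm1. The diamond ranks 9 of 237, 14 of 153, 1 of 408 and 5 of 434 by enrichment in the 4 panels.

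To the right of the main peak, a second peak was nearly the same in all 4 replicates. It began between 124860801 and 124861201, ended between 124870000 and 124870800, and was 9.2 kb wide in both G1E replicates and 8.8 kb and 9.8 kb in the G1E-ER4+E2 replicates. Its lowest shared cover between the lines was 90%, reached by 0.868% of loci. It exceeded 70.3% and 62.1% of peaks by enrichment in G1E and 81.4% and 74.3% in G1E-ER4+E2. The percentile was higher in both G1E-ER4+E2 replicates, as at 46.1% of loci, whereas 22.3% had a lower one in both.

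The outermost peak of the window had the lowest shared cover between the lines of the 3 stretches of peaks there. It spanned 124870801-124876200 and 124871601-124875400 in the G1E replicates, and 124871401-124874200 and 124872801-124874200 in the G1E-ER4+E2 replicates. The widths were 5.4 kb and 3.8 kb in G1E and 2.8 kb and 1.4 kb in G1E-ER4+E2, so the groups did not overlap. A shorter cover in both G1E-ER4+E2 replicates was seen at 25.7% of loci with a peak in all 4 lists, and a longer one at 40.4%. Its lowest shared cover was 25.9% (93.6% and 90% for the other two), and 85.6% of loci reached that or more. By enrichment it was an ordinary peak, exceeding 47.3% and 50.5% of peaks in G1E and 37.2% and 51.4% in G1E-ER4+E2.

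A separate left peak was called in 3 of the 4 replicate lists. By enrichment it exceeded 79.2% and 76.9% of peaks in the G1E-ER4+E2 replicates and 32% in G1E replicate 2, while in G1E replicate 1 the same stretch was part of the main peak, which exceeded 97.3% of peaks. No group comparison was made for it, since 1 G1E replicate has no value. The pooled G1E list had no separate left peak. It had a main peak of 64.0 kb that exceeded 96.9% of peaks and 1 further peak of 15.6 kb, and the pooled G1E-ER4+E2 list had a main peak of 53.0 kb that exceeded 99.9%, flanked by peaks of 9.8 kb, 9.0 kb and 2.8 kb.

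The study's list of tested DNA segments compiles reporter gene assays of enhancer activity, from the study and from earlier work of its laboratory, by transient transfection of K562, a human leukemia line with erythroid and megakaryocytic properties, not of the mouse lines profiled here. The list sorts segments into active, threshold (between active and inactive) and inactive. It has 23 segments named Zfpm1R, of which 6 were active, 6 threshold and 11 inactive. In each of the 6 peak lists, the same 22 lay wholly inside the main peak, 6 active, 6 threshold and 10 inactive (22 ± 0 in each line, SD, n = 2 each). None lay in the left, second or outermost peak. The 6 active and 10 of the 11 inactive segments thus shared 1 peak with 1 enrichment value. Of all 273 tested segments, 55.3% and 54.6% were in a peak in the G1E replicates and 64.1% and 65.2% in the G1E-ER4+E2 replicates, against 22 of 23 for Zfpm1R in all. Of all inactive segments, Zfpm1R included, 34.3% and 35% were in a peak in G1E and 48.2% and 49.6% in G1E-ER4+E2. Of all active segments, 81.1% and 80% were in a peak in G1E and 87.8% in both G1E-ER4+E2 replicates. Since the Zfpm1R segments share 1 peak, they are not independent observations.

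The 6 active segments were spread along the main peak. From left to right they were Zfpm1R1 at 124806655-124806897, Zfpm1R21 at 124820527-124820950, Zfpm1R18 at 124825011-124825309, Zfpm1R13 at 124837164-124837562, Zfpm1R24 at 124838839-124839093 and Zfpm1R14 at 124846624-124847102. Measured from the left border in the pooled G1E-ER4+E2 list, the median midpoint was 24.7 kb for the active, 25.5 kb for the 10 inactive and 31 kb for the 6 threshold segments. When the peak was divided into 3 equal parts of 17.7 kb, the left part held 2 active and 4 inactive segments, the middle part 3 of each, and the right part 1 active and 3 inactive. The classes were interspersed down to short distances. The active Zfpm1R21 began 20 bp beyond the inactive Zfpm1R7, and the active Zfpm1R14 lay 731 bp from the inactive Zfpm1R19. The 22 segments summed to 7506 bp, 14.2% of the main peak in the pooled G1E-ER4+E2 list, so they left most of the acetylated stretch untested.

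In the 3 G1E-ER4+E2 lists and in G1E replicate 2, Zfpm1R1 was the Zfpm1R segment in the main peak closest to its border. In all 3 G1E-ER4+E2 lists it lay 54 bp inside the left border of the main peak, directly beside the gap of 800 bp. In G1E it lay 12654 bp from the border in replicate 1, where Zfpm1R27 was nearer to a border (5185 bp), and 3454 bp in replicate 2. The next segment, the inactive Zfpm1R5, was 1203 bp inside the border in all 3 G1E-ER4+E2 lists. No Zfpm1R or Zfpm1NC segment fell in the gap, so they give no activity for the sequence that lost its peak call. Tested segments with other names were not placed here.

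The 1 Zfpm1R segment outside the peaks was the inactive Zfpm1R16 at 124779651-124780054. The nearest peak was 12650 bp and 12850 bp away in the G1E replicates and 15946 bp and 16546 bp in the G1E-ER4+E2 replicates. The 4 control segments of the locus (Zfpm1NC) differed from each other. Zfpm1NC1 (threshold) was in a peak in all 6 lists, Zfpm1NC2 and Zfpm1NC3 (both inactive) were in none, and Zfpm1NC4 (inactive) was in a peak in the 3 G1E lists and in none of the 3 G1E-ER4+E2 lists. Of these, Zfpm1NC2 and Zfpm1NC3 also lay farther from the nearest peak in G1E-ER4+E2, at 38.6 kb and 39.2 kb for Zfpm1NC2 against 8.0 kb and 8.4 kb in G1E, and at 25.8 kb and 26.4 kb for Zfpm1NC3 against 2.9 kb and 3.1 kb in G1E. For Zfpm1R16, Zfpm1NC2 and Zfpm1NC3, the nearest G1E peak lay between Zfpm1NC2 and Zfpm1NC3, where G1E-ER4+E2 had no peak. In G1E-ER4+E2 the nearest peak was the left peak of the window, so these distances are not separate changes.

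Of the other groups of at least 5 segments named for a gene, Hipk2R and Vav2R had different counts in a peak in the 2 lines and Gata2R had the same count. Smaller groups are not listed. Of all 31 gene-named segments other than Zfpm1R, 38.7% were in a peak in both G1E replicates, and 67.7% and 74.2% in the G1E-ER4+E2 replicates. The 11 Hipk2R segments had 3 and 2 in a peak in the G1E replicates and 7 and 9 in the G1E-ER4+E2 replicates. The 7 Gata2R segments, at the gene of another GATA factor, had 5 in a peak in all 4 replicates. The 6 Vav2R segments had 1 in a peak in both G1E replicates and 2 in both G1E-ER4+E2 replicates. Of all 250 segments other than Zfpm1R, 51.6% and 50.8% were in a peak in the G1E replicates and 61.2% and 62.4% in the G1E-ER4+E2 replicates. These counts are given side by side, and the difference between groups of segments was not tested.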

How the data were processed

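H3K27ac ChIP-seq (Abcam Ab4729 antibody) was analysed from the broad peak lists of 4 samples and 2 pooled lists. The submitters' processing notes name bcl2fastq 1.8.4, Bowtie 1.0.0, SICER 1.1 and mm9. The control, the gap setting and the way replicates were pooled are not given in the sources used here. The authors deposited for each peak a fold enrichment (a ratio on a linear scale) with a p-value, not used here, and a q-value. All q-values were at most 0.01 and all borders lay on a 200 bp grid. Read numbers are not in the lists, so depth is unknown, and intervals for counting error could not be given. Wide peaks join across gaps by the setting of the caller, so widths depend on it.

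A peak was taken when it overlapped a window by at least 1 bp. Enrichment was ranked only within a list. Loci were the merged peaks of the 4 replicate lists. Groups were compared with exact two-sided permutation tests over replicates. Each p-value ranks the difference of means among the relabellings of these samples. The labels do not say whether replicates were separate cultures, so p-values speak for these samples only. Segments, their classes and mm9 positions are from the study's list, and no reporter value was used. Named items were Gata1, Zfpm1, every peak in the windows and every Zfpm1R and Zfpm1NC segment. The 6 lists were also to be read at the start sites of fixed lists of GATA1 partner genes and cell type markers. Without an mm9 annotation neither list was used, and the erythroid identity of the cells was not checked. Windows, members and lists were chosen with earlier results of these data known. The interval routines were tested on simulated data. Computations used SciPy 1.17.1 and pandas 2.3.3 under Python 3.11.15, with NumPy 2.4.6, and Matplotlib 3.10.9 drew the plots.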

Additional observations from a re-analysis of the deposited data

How the results depend on the processing

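With 2 samples in each line no test here could pass 0.05, so an alternative can change a direction or a size but no call. The count of 22 Zfpm1R segments in a peak and the higher percentile of the main Zfpm1 peak in G1E-ER4+E2 kept their direction under every alternative run. The covered length of the Zfpm1 window differed by 0 bp when peaks below the median enrichment of their list were left out, which removed 1 short peak from each of 3 lists. The direction of the Gata1 edge peak was not stable: its width difference turned to 300 bp without G1E replicate 2, and its percentile difference to -0.189 points at equal covered length. Of the merged loci, 12872 were longer and 8043 shorter in G1E-ER4+E2, against 4889 and 3110 among loci with a peak in all 4 lists. At equal covered length 5874 were longer and 8920 shorter, so the direction of the genome-wide background depends on how much each list covers.

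When 1 replicate was left out, the differences (G1E-ER4+E2 minus G1E) ranged from -6700 to -1700 bp for the covered length of the Zfpm1 window and from -1000 to -400 bp for that of Gata1, from -13000 to -3800 bp for the width of the main Zfpm1 peak and from -1100 to 300 bp for that of the Gata1 edge peak, and from 2.61 to 4.83 and from 0.916 to 6.13 percentile points. The replicate numbers pair samples by number only: over 12090 loci the deviations of same-numbered samples from their group means had a correlation of 0.15. With a replicate block the differences were the same (-4200, -700, -8400 and -400 bp, 3.72 and 3.52 points and 0 segments), with an exact sign-flip p of 0.5, the smallest possible, or 1 for the Gata1 width and the segments.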
